A study of Homo sapiens with 8 samples.

Results

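The Hippo pathway and its YAP/TAZ target genes were followed as 34 genes, taken by symbol as a list of pathway members and targets with no threshold on their values, out of 18244 genes measured on the arrays. They comprised the 2 co-activators YAP1 and WWTR1 (which encodes TAZ), the 4 TEAD factors, 7 genes of the core kinase cassette, 9 upstream regulators and 12 target genes. All 34 were measured, each by the brightest of its probe sets that carried its symbol alone, and no filter on low values was applied. The values were log2 intensities from single-colour arrays of total RNA, in the lung adenocarcinoma lines A549 and PC9, which are established human cell lines. The tested cells were stably infected with a retrovirus carrying EN2, the gene of an engrailed homeobox transcription factor. The control cells (NC) were infected with the Neo vector in the same way, so that all 4 groups had passed through retroviral infection and drug selection. Groups were A549 with EN2, A549 NC, PC9 with EN2 and PC9 NC, with 2 arrays each. A549 was grown in F-12K and PC9 in DMEM, so the medium goes with the line. The labels do not say whether the cells were clones or pools, or whether the arrays came from separate cultures. The p-values therefore measure the spread between these arrays, which may be technical.

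In the Hippo pathway, the kinases STK3 and STK4 (MST2 and MST1), with the scaffold SAV1, activate LATS1 and LATS2, which act with MOB1A or MOB1B. LATS kinases phosphorylate YAP and TAZ, which holds these co-activators in the cytoplasm or leads to their degradation. When the kinases are quiet, YAP and TAZ enter the nucleus, bind TEAD factors and raise transcription of genes such as CCN1, CCN2 and ANKRD1. Several targets, among them LATS2 and AMOTL2, feed back on the pathway. YAP and TAZ are regulated largely by phosphorylation and location, which the arrays do not measure.

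TEAD factors bind the letters GGAATG or close variants, and this motif was sought on both strands in the 250 bases before the start site of each gene in RefSeq (GRCh38.p14). Windows were held for 27 of the 34 genes, and 9 of them (33.3%) had at least 1 match, against 3902 of 27305 genes (14.3%). Among genes with a window, matches were found in 4 of 9 targets, 4 of 8 regulators, 1 of 2 co-activators (YAP1), 0 of 6 genes of the kinase cassette and 0 of 2 TEAD factors. The sequences below are those of FOXF2 and AMOTL2, which rose in A549, and of CCN2 and ANKRD1, which are in common use as readouts of YAP/TAZ activity. They run 5′ to 3′ along the gene's strand, with each match in capitals (GGAATG, or CATTCC where it lies on the other strand). The FOXF2 window is chr6:1389326-1389575 on the plus strand, the AMOTL2 window chr3:134374448-134374697 on the minus strand, the CCN2 window chr6:131951373-131951622 on the minus strand and the ANKRD1 window chr10:90921088-90921337 on the minus strand.
FOXF2: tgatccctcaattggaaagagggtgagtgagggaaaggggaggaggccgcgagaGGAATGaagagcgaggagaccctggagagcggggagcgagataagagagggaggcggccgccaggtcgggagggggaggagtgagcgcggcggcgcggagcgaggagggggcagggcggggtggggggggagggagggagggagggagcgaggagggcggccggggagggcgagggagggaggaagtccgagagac
AMOTL2: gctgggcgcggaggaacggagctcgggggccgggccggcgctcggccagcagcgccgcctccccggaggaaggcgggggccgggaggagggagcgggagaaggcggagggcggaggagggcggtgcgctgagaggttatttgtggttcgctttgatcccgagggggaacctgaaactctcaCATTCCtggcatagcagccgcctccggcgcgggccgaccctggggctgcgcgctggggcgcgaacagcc
CCN2: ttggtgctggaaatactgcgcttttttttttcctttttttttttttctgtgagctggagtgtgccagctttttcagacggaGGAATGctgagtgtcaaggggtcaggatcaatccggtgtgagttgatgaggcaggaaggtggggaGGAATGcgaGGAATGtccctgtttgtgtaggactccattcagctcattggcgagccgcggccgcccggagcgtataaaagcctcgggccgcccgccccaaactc
ANKRD1: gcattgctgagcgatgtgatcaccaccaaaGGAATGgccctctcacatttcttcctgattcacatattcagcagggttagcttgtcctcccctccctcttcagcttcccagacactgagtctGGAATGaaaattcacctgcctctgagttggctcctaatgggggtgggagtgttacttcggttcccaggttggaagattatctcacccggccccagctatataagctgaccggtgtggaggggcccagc
The CCN2 window held 3 matches, starting 169, 104 and 95 bases before the start site, and the ANKRD1 window held 2, at 220 and 128 bases. FOXF2 had 1 match at 196 bases. AMOTL2 had 1 on the other strand at 69 bases, and none in the window of its other listed start site. A match is a description of the letters and was not tested as a binding site. The windows of GADD45B and WWTR1, which fell in A549, held no match. No window was held for TEAD1, which rose there, or for CCN1.

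As a check of the labels, EN2 read 7.71 and 7.62 in EN2 cells and 6.48 and 6.57 in NC cells of A549, a log2 change of 1.15 ± 0.091 (SE, limma adjusted p = 0.00028). In PC9 it read 6.24 and 6.39 in EN2 cells and 5.86 and 5.78 in NC cells, a change of 0.50 that was not called (limma adjusted p = 0.0801). Array medians lay at 6.33 to 6.35 in A549 and 6.10 to 6.11 in PC9. How A549 and PC9 values are scaled against each other is not known, so levels of the lines are given side by side without a test. Of 6 epithelial markers, KRT8, KRT18 and KRT7 had group means of 12.26 to 14.21 over both lines, and in PC9 KRT19, CDH1 and EPCAM had 10.79 to 13.59. In A549 the last 3 read lower, with KRT19 at 9.0 in EN2 and 9.70 in NC cells, CDH1 at 8.57 and 9.68, and EPCAM at 5.26 and 6.04. Of 10 markers of other cell types, PTPRC, DCN and LUM lay below background in both lines and CDH5 in A549, while CD3E, CD79A, CD14, PECAM1, VWF and COL1A1 had group means of 4.75 to 6.31 in the lines, above background. Background was taken as the 95th percentile of 100 spike-in probe sets, 4.38 in A549 and 3.92 in PC9. The arrays of A549 differed in the signal of 3 control probe sets for 18S rRNA, which averaged 11.66 and 12.12 on the EN2 arrays and 12.44 and 12.74 on the NC arrays. In PC9 it was 6.05 on both EN2 arrays and 6.05 and 6.10 on the NC arrays.

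In A549, EN2 cells differed from NC cells in 5 of the 34 genes. FOXF2, TEAD1 and AMOTL2 rose, and GADD45B and WWTR1 fell, by 1.36-fold to 1.81-fold, at limma's adjusted p below 0.05. Over all genes, 2.72% were called, 1.57% higher and 1.15% lower. The changes of the 34 genes ran from -0.59 to 1.14 on the log2 scale, with 27 positive and 7 negative and a median of 0.20, against a median of -0.0015 over all genes. At an unadjusted p below 0.05 stood 20 of the 34, against 17.4% of all genes. Both EN2 arrays lay above both NC arrays for 21 genes and below them for 4, against 24.1% and 23.5% of all genes, so that 25 did not overlap, against 47.6% of all genes. With the 18S rRNA signal of the arrays as a covariate, 0 of the 34 were called, beside 20 of all genes. A further fit left out the outer arrays of A549 by 18S signal, the lowest and the highest (EN2 replicate 1 and NC replicate 2). It sets EN2 replicate 2 against NC replicate 1 in A549, so its spread comes from PC9 alone and its changes are the part to read. The median change of the 34 was 0.057 with the covariate and 0.10 without the outer arrays. The signal separates the 2 groups of A549, and the median SE of the 34 changes was 0.169 with the covariate, against 0.090 without it, so 18S signal and EN2 cannot be told apart by these arrays. Values under these fits are given with the genes described in full.

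**Figure D1:**
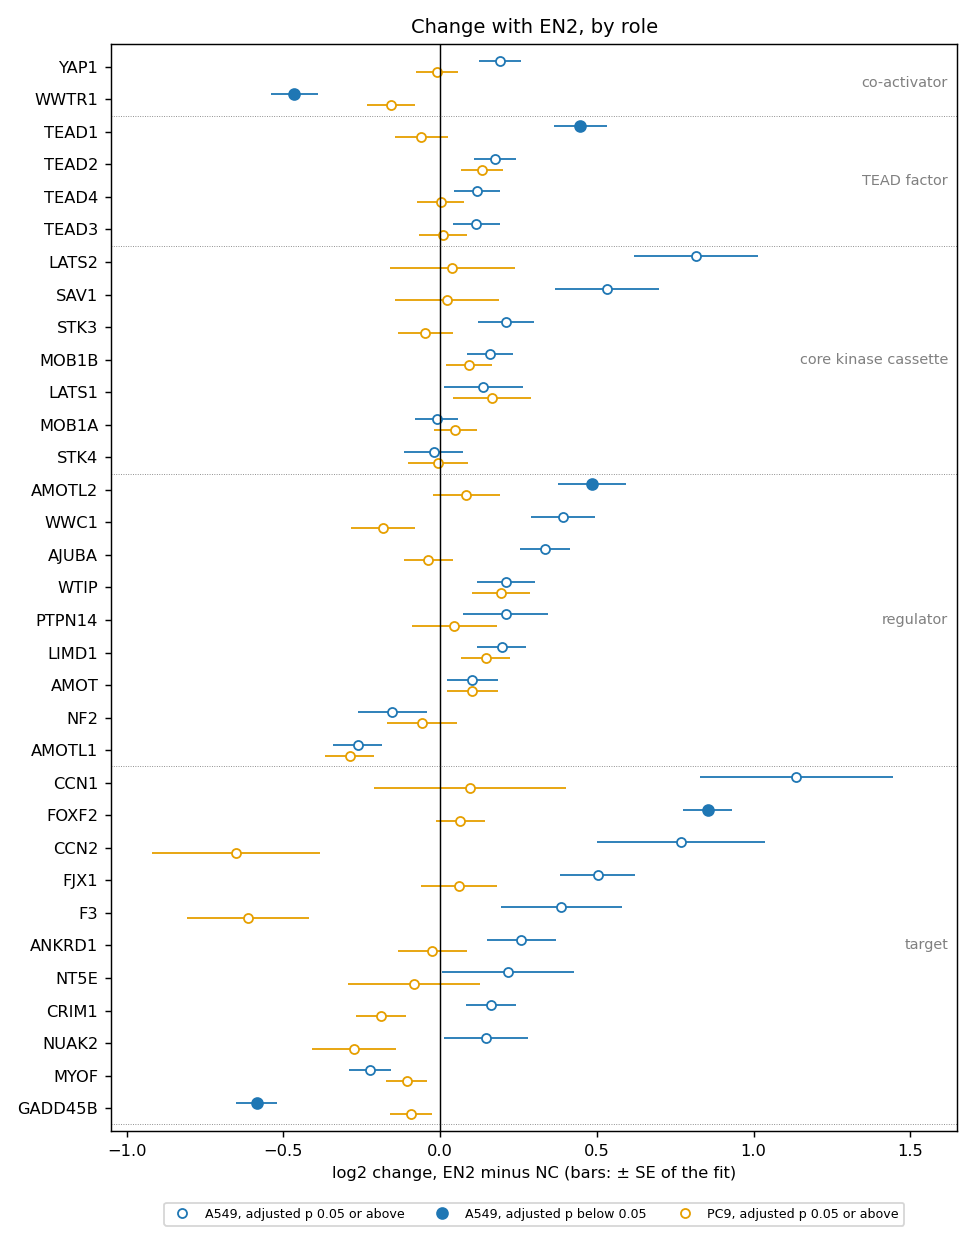
Log2 change of EN2 over NC cells (x axis, ± SE from limma) for 33 of the 34 genes (rows, by role), in A549 (blue) and PC9 (orange); filled A549 points are at adjusted p below 0.05. In A549, 26 of the points are positive and 5 are filled, and in PC9 the points lie on both sides of 0, with 16 positive and 17 negative.

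Of the co-activators, WWTR1 fell in A549. It read 9.65 and 9.81 in EN2 cells and 10.15 and 10.24 in NC cells, a log2 change of -0.46 ± 0.076 (SE), 1.38-fold lower (limma adjusted p = 0.0154). The groups did not overlap, and all 3 WWTR1 probe sets had a negative change. The change was -0.24 with the 18S covariate (limma adjusted p = 0.875) and -0.34 without the outer arrays (limma adjusted p = 0.375). YAP1 read 10.27 and 10.10 in EN2 cells and 10.01 and 9.98 in NC cells. Both EN2 arrays were the higher, as were 7 of 8 YAP1 probe sets in their means, but the change of 0.19 ± 0.067 did not pass (limma adjusted p = 0.173) and was -0.0047 with the 18S covariate. The co-activators thus had opposite signs in A549, with only WWTR1 called. Whether their changes differed from each other was not tested.

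All 4 TEAD factors, the DNA-binding partners of YAP and TAZ, had both EN2 arrays above both NC arrays in A549, as did 24.1% of all genes. Of the 4, TEAD1 alone was called. TEAD1 read 10.51 and 10.34 in EN2 cells and 10.08 and 9.87 in NC cells, a log2 change of 0.45 ± 0.085, or 1.36-fold (limma adjusted p = 0.0262). Its other probe sets differed by 0.079 and 0.24, and the mean of all 3 by 0.25, which did not pass (limma adjusted p = 0.0889). The change was 0.12 with the 18S covariate and 0.26 without the outer arrays. TEAD2, TEAD3 and TEAD4 differed by 0.18, 0.12 and 0.12, and none was called.

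Of the 7 genes of the kinase cassette, none was called in A549 by limma. At an unadjusted p below 0.05 stood 3 (LATS2, SAV1 and STK3), against 17.4% of all genes. LATS2, a kinase that restrains YAP and TAZ and is itself a target of theirs, had the largest change of the cassette. It read 10.40 and 10.08 in EN2 cells and 9.78 and 9.07 in NC cells, a log2 change of 0.82 ± 0.20 (limma adjusted p = 0.0666). The groups did not overlap, but the NC arrays lay further apart than NC replicate 1 lay from the lower EN2 array. The change of LATS2 was -0.038 with the 18S covariate and 0.30 without the outer arrays. The scaffold SAV1 read 7.99 and 7.51 in EN2 cells and 7.43 and 6.99 in NC cells, a difference of 0.53 (limma adjusted p = 0.131) that was -0.30 with the 18S covariate and 0.072 without the outer arrays. STK3, LATS1 and MOB1B differed by 0.21, 0.14 and 0.16 without passing, and STK4 and MOB1A by -0.021 and -0.011. The median change of the cassette was 0.16.

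Of the 9 upstream regulators, AMOTL2 was called in A549. AMOTL2, an angiomotin-family protein that binds YAP and is a YAP/TAZ target, read 9.82 and 9.77 in EN2 cells and 9.48 and 9.14 in NC cells. Its log2 change of 0.48 ± 0.11, or 1.40-fold, lay just inside the threshold (limma adjusted p = 0.0489). Of its other probe sets 1 was positive and 1 negative (0.27 and -0.072), and the mean of all 3 differed by 0.23 (limma adjusted p = 0.180). The change was 0.18 with the 18S covariate and 0.29 without the outer arrays. Its relative AMOTL1 had the opposite sign, with 8.51 and 8.62 in EN2 cells and 8.84 and 8.82 in NC cells (-0.26 ± 0.078, limma adjusted p = 0.117). The brightest AMOT probe set lay below background on all 4 A549 arrays (4.16 to 4.29), while in PC9 it read 8.05 to 8.21. Another of its 4 probe sets read 4.49 to 4.62 in A549, just above background. AJUBA, a LIM protein that inhibits LATS, differed by 0.33 ± 0.079 (limma adjusted p = 0.0588), and the LIM proteins LIMD1 and WTIP by 0.20 and 0.21. WWC1, which encodes the LATS activator KIBRA, differed by 0.39 ± 0.10 (limma adjusted p = 0.0823). These 4 genes had both EN2 arrays above both NC arrays, as did 24.1% of all genes, and none was called. With the 18S covariate AJUBA differed by 0.091 and WWC1 by 0.29, and AMOTL1 by -0.15. NF2, the gene of merlin, and PTPN14, a phosphatase that binds YAP, had overlapping groups (-0.15 and 0.21).

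Of the 12 target genes, FOXF2 rose and GADD45B fell in A549, and 10 were not called. FOXF2, a forkhead transcription factor, read 9.33 and 9.24 in EN2 cells and 8.44 and 8.42 in NC cells. It had 1 probe set, so no other reading of the gene was at hand. The means were 9.28 ± 0.063 with EN2 and 8.43 ± 0.010 in NC cells (SD, n = 2 arrays each), a log2 change of 0.85 ± 0.079 (SE) or 1.81-fold (limma adjusted p = 0.000599). The gap between the groups was far wider than the spread within either. The change was 0.74 ± 0.15 with the 18S covariate (limma adjusted p = 0.204) and 0.80 without the outer arrays (limma adjusted p = 0.0885). GADD45B, a stress and growth-arrest gene, read 9.68 and 9.66 in EN2 cells and 10.29 and 10.22 in NC cells, a log2 change of -0.59 ± 0.067, or 1.5-fold lower (limma adjusted p = 0.0021). All 4 of its probe sets had a negative change, from -0.59 to -0.12, and their mean fell by 0.38 (limma adjusted p = 0.0225). It was -0.66 with the 18S covariate (limma adjusted p = 0.178) and -0.63 without the outer arrays (limma adjusted p = 0.0885). The changes of FOXF2 and GADD45B thus kept most of their size under both fits, while their calls were lost.

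The usual readouts of YAP/TAZ activity were not called in A549. CCN1 (CYR61), a secreted matricellular protein, read 10.54 and 10.32 in EN2 cells and 9.93 and 8.65 in NC cells. It had the largest change of the 34, at 1.14 ± 0.31 or 2.20-fold, but the NC arrays lay further apart than the change itself and it did not pass (limma adjusted p = 0.0899). CCN2 (CTGF), its relative, read 9.0 and 8.51 in EN2 cells and 8.46 and 7.52 in NC cells, a log2 change of 0.77 ± 0.27 (limma adjusted p = 0.171). Here the lower EN2 array and the higher NC array were nearly level. For both, NC replicate 2 stood lowest. With the 18S covariate the change of CCN1 was 0.0077 and that of CCN2 was -0.44; without the outer arrays they were 0.39 and 0.053. ANKRD1, a nuclear ankyrin-repeat protein, lay below background in both lines and gave no usable reading, with 3.81 and 3.86 in EN2 cells and 3.75 and 3.40 in NC cells of A549. FJX1, a secreted protein, read 9.44 and 9.25 in EN2 cells and 8.81 and 8.88 in NC cells (0.50 ± 0.12, limma adjusted p = 0.0632, and 0.32 with the 18S covariate). The membrane protein gene MYOF read 11.59 and 11.55 in EN2 cells and 11.74 and 11.85 in NC cells (-0.22 ± 0.066, limma adjusted p = 0.115). F3 (tissue factor), NT5E (the ecto-enzyme CD73) and the kinase gene NUAK2 had overlapping groups, with changes of 0.15 to 0.39. With the 18S covariate F3 was at -0.40. CRIM1, a transmembrane protein, differed by 0.16.

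**Figure D2:**
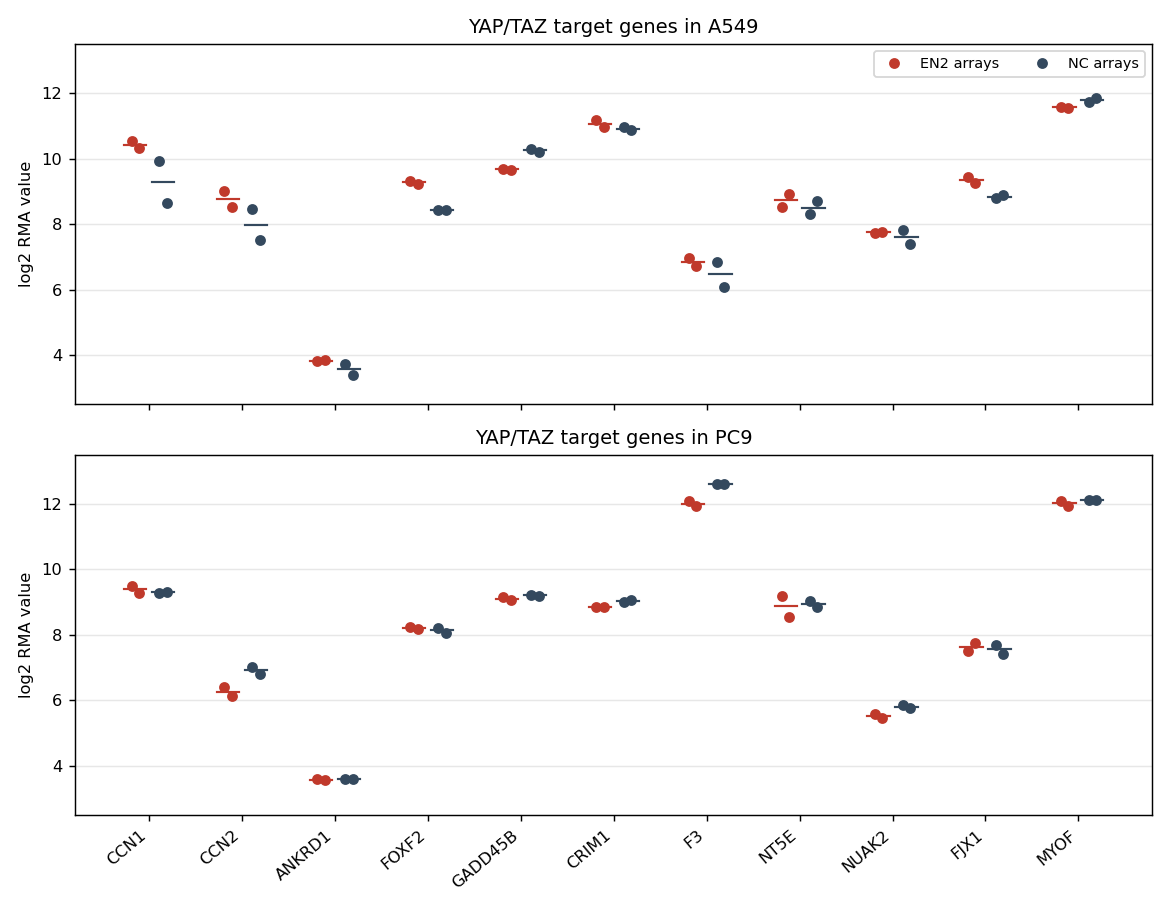
Log2 value on each array (points) and group means (lines) of 11 of the target genes, EN2 cells left of NC cells, with A549 in the upper row and PC9 in the lower. In A549 the group means of FOXF2 (9.28 against 8.43) and GADD45B (9.67 against 10.26) are far apart for their spread, CCN1 and CCN2 spread widely over the A549 NC arrays, and F3 lies at 11.92 to 12.61 in PC9.

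Several genes followed the 18S signal array by array in A549. For 12 of the 34, including CCN1, CCN2, LATS2, AMOTL2, TEAD1, YAP1 and FOXF2, the level was lower on each array of higher 18S signal, against 10.3% of all genes. WWTR1 alone was higher on each such array, against 9.36% of all genes. Since that order puts both EN2 arrays on one side of both NC arrays, it cannot be told apart from the group difference. The 18S signal's part in these changes, and that of RNA quality, was not tested beyond the fits above. The actin control probe sets read 0.98 and 0.88 higher at the 3′ than the 5′ end on the EN2 arrays of A549, against 0.79 and 0.78 on the NC arrays. For GAPDH the same difference was -0.049 and -0.063 on the EN2 arrays of A549 and -0.065 and -0.11 on the NC arrays. In PC9 the actin difference was 1.29 and 1.03 on the EN2 arrays and 1.09 and 1.13 on the NC arrays. Epithelial markers moved in A549 as well: 4 of 6 were called lower, against 1.15% of all genes. Among them CDH1 fell by 1.11 and EPCAM by 0.77 on the log2 scale, while KRT18 lay just inside the threshold (limma adjusted p = 0.0476). Values of these markers with the 18S covariate are not given here. In PC9 none of the 6 was called by limma, with 1 at an unadjusted p below 0.05, against 6.75% of all genes. Of 10 markers of leukocytes, endothelium and fibroblasts none was called by limma in either line. At an unadjusted p below 0.05 stood 3 in A549 and 0 in PC9, against 17.4% and 6.75% of all genes. In bulk RNA, fewer cells with a transcript and less of it per cell cannot be told apart.

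**Figure D3:**
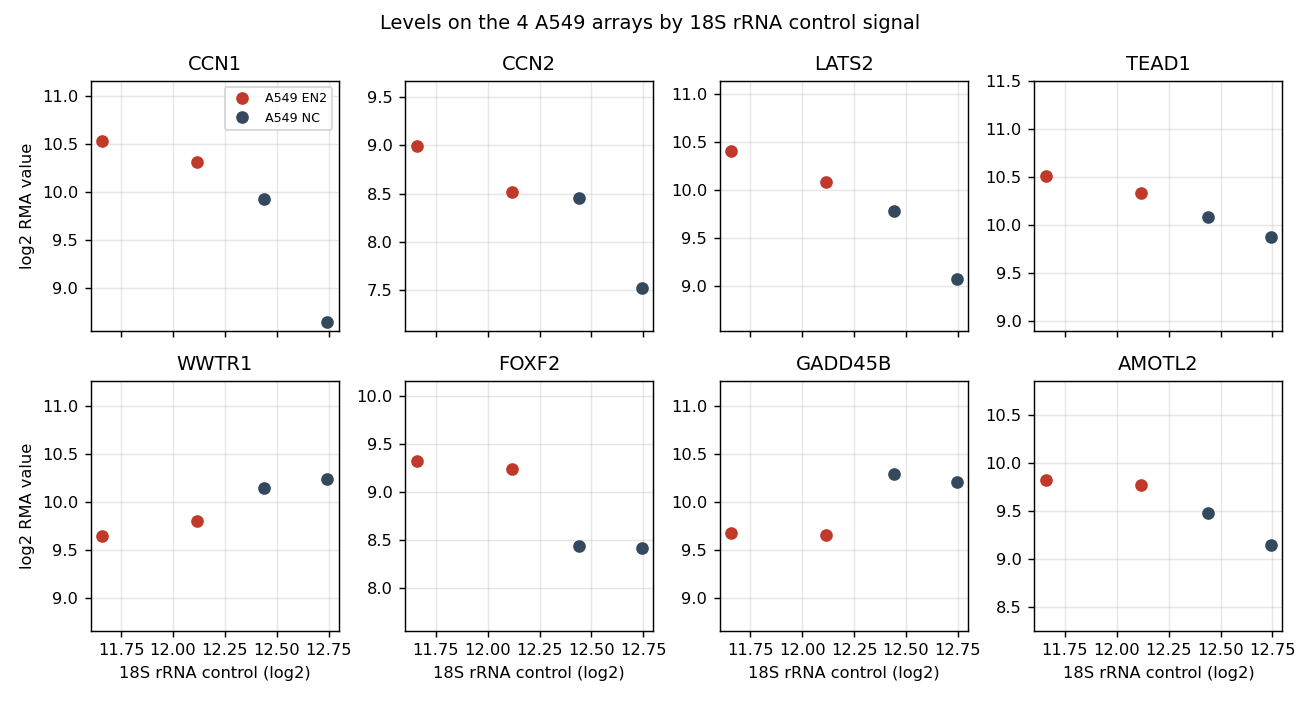
Log2 level of 8 of the genes (y axis) against the 18S rRNA control signal (x axis, log2) on the 4 A549 arrays, EN2 and NC arrays in separate colours. The EN2 arrays lie at 11.66 and 12.12 and the NC arrays at 12.44 and 12.74, and CCN1, CCN2, LATS2, TEAD1, FOXF2 and AMOTL2 step down from left to right while WWTR1 steps up.

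In PC9, none of the 34 genes was called by limma, and 4 stood at an unadjusted p below 0.05 (CCN2, F3, AMOTL1 and CRIM1). Over all genes, 0.367% were called (0.148% higher and 0.219% lower) and 6.75% stood at an unadjusted p below 0.05. The 34 changes had a median of -0.0086, against 0.0040 over all genes, with 16 positive and 18 negative. Both EN2 arrays lay above both NC arrays for 6 genes and below them for 11, against 17.7% and 15.2% of all genes, so that 17 did not overlap, against 32.9% of all genes. Among the 12 targets, 9 changes were negative, and for 7 both EN2 arrays lay below both NC arrays. Both counts include ANKRD1, which lay below background. CCN2 read 6.40 and 6.12 in EN2 cells and 7.03 and 6.79 in NC cells, a log2 change of -0.65 ± 0.27 (limma adjusted p = 0.707). F3, the tissue factor gene, read 12.07 and 11.92 in EN2 cells and 12.61 and 12.61 in NC cells, a change of -0.61 ± 0.19 (limma adjusted p = 0.464). The 3 probe sets of CCN2 and the 3 of F3 all had negative changes. When every probe set was tested, 1 of F3 was called lower in PC9, at 9.82 and 9.82 in EN2 cells and 10.62 and 10.53 in NC cells (limma adjusted p = 0.00705), while its brightest was not. AMOTL1 read 8.78 and 8.87 in EN2 cells and 9.05 and 9.17 in NC cells (-0.29 ± 0.078, limma adjusted p = 0.326), a change close in size to that in A549.

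The genes called in A549 were not called in PC9. FOXF2 read 8.23 and 8.17 in EN2 cells and 8.21 and 8.07 in NC cells, so the groups overlapped. WWTR1 read 9.14 and 9.09 in EN2 cells and 9.30 and 9.24 in NC cells, a change of -0.16 ± 0.076 in the same direction as in A549 (limma adjusted p = 0.797). GADD45B likewise lay lower, at 9.14 and 9.07 in EN2 cells and 9.22 and 9.18 in NC cells (-0.094 ± 0.067, limma adjusted p = 0.964). TEAD1 and AMOTL2 differed by -0.061 and 0.084. CCN1 read 9.5 and 9.29 in EN2 cells and 9.29 and 9.31 in NC cells, and YAP1 read 11.20 and 11.21 in EN2 cells and 11.23 and 11.20 in NC cells, with overlap in both. With 2 arrays a group and the SE of CCN2 and CCN1 at 0.27 and 0.31, changes of moderate size in those genes could pass unnoticed. These SEs pool the spread of both lines, which was widest on the A549 NC arrays. The SD of CCN1 was 0.90 in A549 NC cells, against 0.15 and 0.018 in EN2 and NC cells of PC9. For CCN2 it was 0.67, against 0.19 and 0.17, and for F3 0.53, against 0.11 and 0.0029.

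The change with EN2 in A549 was then set against that in PC9 by an interaction contrast, A549 minus PC9. FOXF2 alone was called, with a difference of 0.79 ± 0.11 (limma adjusted p = 0.0160), against 0.784% of all genes called (0.46% higher and 0.323% lower). That call was lost with the 18S covariate (0.67, limma adjusted p = 0.365). GADD45B came close, at -0.49 ± 0.095 (limma adjusted p = 0.0565). CCN2 had the largest difference, 1.42 ± 0.38, since its changes had opposite signs in the lines, but it did not pass (limma adjusted p = 0.169). F3, likewise of opposite signs, did not pass either (1.0, limma adjusted p = 0.182), nor did CCN1, which was positive in both lines (1.04, limma adjusted p = 0.385). At an unadjusted p below 0.05 stood 13 of the 34 differences, against 11.9% of all genes. The lack of a call in PC9 therefore does not show a difference between the lines for the genes other than FOXF2. EN2 itself differed by 1.15 in A549 and 0.50 in PC9 (difference 0.65, limma adjusted p = 0.0638). For FOXF2 too, the line and the size of the EN2 change cannot be told apart by these arrays.

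**Figure D4:**
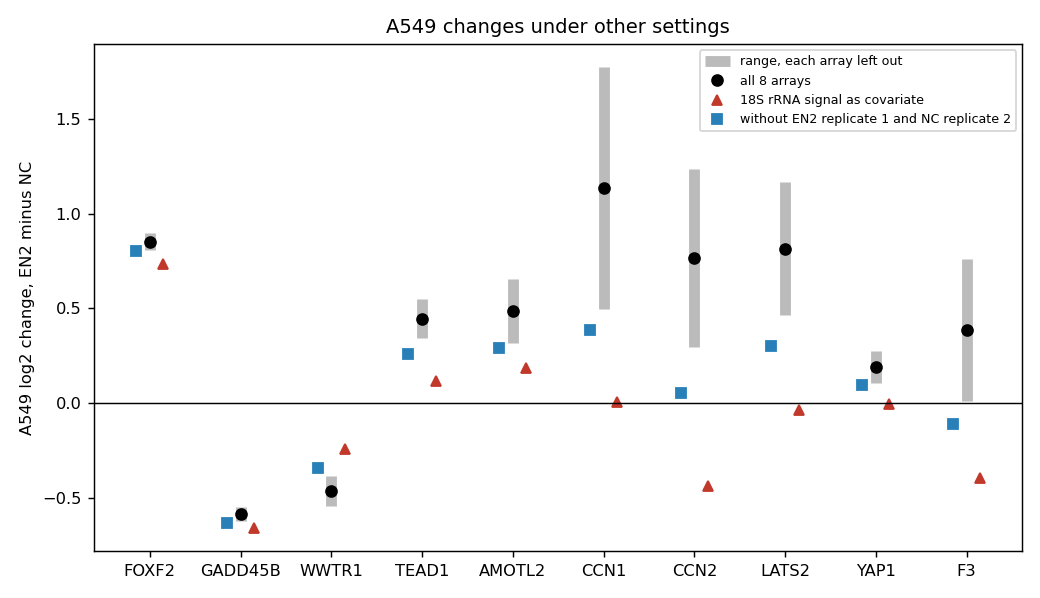
Log2 change of EN2 over NC in A549 (y axis) for 10 genes (x axis) with all 8 arrays, as a range over fits that leave out an array each, with an 18S covariate, and without EN2 replicate 1 and NC replicate 2. FOXF2 keeps 0.74 to 0.90 and GADD45B -0.66 to -0.55 over these fits, while CCN1 runs from 0.0077 to 1.78 and CCN2 from -0.44 to 1.24.

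Other components of the pathway, a list of 56 genes of which 53 were measured, had 3 genes that rose in A549, 0 that fell and 50 that were not called, with a median change of 0.030. Over all genes 1.57% were called higher in A549. The 3 were FAT4, an atypical cadherin (limma adjusted p = 0.0125), the TEAD cofactor VGLL3 (0.53, limma adjusted p = 0.0149) and RASSF1, which binds MST kinases (0.43, limma adjusted p = 0.0287). FAT4 read 4.88 and 4.81 in EN2 cells and 4.25 and 4.14 in NC cells of A549, with the NC arrays below background, so its change has no exact size, and it lay below background in PC9. In PC9 limma called none of the 53, and their median change was -0.023. At an unadjusted p below 0.05 stood 5 of them (9.43%), against 6.75% of all genes. Of a further list of 30 YAP/TAZ target genes, 28 were measured. In A549 4 rose and 1 fell, with a median of 0.19, against 1.57% and 1.15% of all genes. DKK1, a secreted Wnt inhibitor, rose by 0.70 (limma adjusted p = 0.000524), and THBS1, the gene of thrombospondin-1, by 0.57 (limma adjusted p = 0.00967). LHFPL6 rose by 0.73 (limma adjusted p = 0.0205) and FSTL1, a secreted glycoprotein, by 0.41 (limma adjusted p = 0.0259), while CAVIN2, a caveolar coat protein, fell by 0.80 (limma adjusted p = 0.00995). With the 18S covariate, and without the outer arrays, none of these A549 calls in either list was made. Without EN2 replicate 1 of A549, and likewise without NC replicate 2, only DKK1 was called among the targets and 0 among the components by limma.

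In PC9 4 of the 28 rose, 0 fell, and the median was -0.073. FSTL1 rose by 0.72 (limma adjusted p = 0.00438), the receptor tyrosine kinase gene AXL by 0.76 (limma adjusted p = 0.00513), the integrin gene ITGB2 by 0.63 (limma adjusted p = 0.0312) and DKK1 by 0.39 (limma adjusted p = 0.0344). FSTL1 and DKK1 were thus called higher in both lines by the main fit. Called higher were 1.57% of all genes in A549 and 0.148% in PC9, and the share called higher in both was not counted. The A549 calls of FSTL1 and DKK1 were lost with the 18S covariate. The 18S signal hardly varied in PC9 (6.05 to 6.10), so the covariate could hardly alter changes there and is no check on them. The PC9 count was 4 higher and 1 lower with the 18S covariate and 2 higher without the outer arrays of A549, which enter through the shared estimate of spread. It was 0 with the PC9 arrays alone, 0 with treat and 0 without NC replicate 2 of PC9, where AXL and FSTL1 were lost too, and 1 without EN2 replicate 1 or NC replicate 1 of PC9. The DKK1 call in PC9 was lost whenever an array of either line was left out, and with a constant prior variance or quantile normalisation. Between the lines, the change in A549 exceeded that in PC9 for THBS1 (0.73, limma adjusted p = 0.0339) and LHFPL6 (1.07, limma adjusted p = 0.037). It was the lower for AXL (-0.67, limma adjusted p = 0.0401). Of all genes, 143 (0.784%) were called in this contrast, and 10 with the 18S covariate. How THBS1, LHFPL6 and AXL fared in this contrast under the alternatives is not given here. CAVIN2 had PC9 group means below background, so no difference between lines is given for it.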

How the data were processed

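Log2 values were used as the authors deposited them. RMA is named in the submitters' processing notes. Its version, and any joint normalisation of all arrays, are not given in the labels. Of the probe sets, 45284 carried 1 symbol, 1333 several and 2878 none, and 45214 matched GRCh38.p14 names by Entrez identifier. The brightest 1-symbol probe set stood for a gene. Group means over all 8 arrays were compared with limma 3.58.1 in R 4.3.3 (lmFit, then eBayes with an intensity trend, leaving 4 residual degrees of freedom). Two-sided p-values were adjusted by Benjamini-Hochberg over 18244 genes, and genes were called below 0.05. The method was tested on simulated data. An exact permutation test of 2 against 2 arrays cannot give a two-sided p below 0.333. The number of arrays limits precision.

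The list of 34 members, taken by symbol, the other lists and the 18S alternatives were chosen with earlier results of these data known. Full statistics were given for called members and for CCN1, CCN2, ANKRD1, YAP1 and WWTR1, and of the further lists up to 6 called genes a line. LATS2, F3 and other members given with statistics were added after their values were seen. The values of 1 member are not reported here by name. Genes of the lists without a probe set were not analysed here. Alternatives were a constant or robust prior, brighter genes alone, quantile normalisation, median centring, the mean of a gene's probe sets, every probe set, each line fitted alone, a replicate block, the 18S covariate, leaving out the outer A549 arrays, treat (1.2-fold), and leaving out arrays in turn.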

Additional observations from a re-analysis of the deposited data

Results flagged for a closer look

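The change of FOXF2 with EN2 differed between the lines by a test of the difference itself. It was 0.85 in A549 and 0.065 in PC9 on the log2 scale, a difference of 0.79 ± 0.11 (SE, limma adjusted p = 0.0160). Both EN2 arrays lay above both NC arrays in A549, and the groups overlapped in PC9. The EN2 transcript differed by 1.15 in A549 and 0.50 in PC9, so line and size of the EN2 change cannot be told apart. The call was lost when EN2 replicate 1 or NC replicate 2 of A549 was left out (0.74 and 0.78), and when EN2 replicate 1, EN2 replicate 2 or NC replicate 1 of PC9 was (0.82, 0.76 and 0.72). The part of the 18S rRNA signal, with which the A549 groups differ, was not tested beyond the covariate fit (0.67, limma adjusted p = 0.365).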

How the results depend on the processing

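In A549, 5 of the 34 genes were called. The count was 3 with the mean of a gene's probe sets, 2 with the arrays of the line alone, 0 with the 18S covariate, 0 without the outer arrays and 1 with treat; leaving out each array gave 2 to 9. It was 2 without EN2 replicate 1, 2 without NC replicate 2, and 9 without NC replicate 1, where CCN1 was 1.78 (limma adjusted p = 0.000742), CCN2 1.24 (limma adjusted p = 0.0229) and LATS2 1.17 (limma adjusted p = 0.00829). Leaving out any PC9 array gave 3, by the shared estimate of spread. Among 20 alternatives, FOXF2 was called in 18, GADD45B in 17, WWTR1 in 14, TEAD1 in 9 and AMOTL2 in 5. Since FOXF2 had 1 probe set, the mean of probe sets could not alter its change. With quantile normalisation FJX1 took the place of AMOTL2. With the 18S covariate the A549 changes turned to -0.44 for CCN2, -0.0047 for YAP1, -0.038 for LATS2 and -0.40 for F3, and 13 of the 34 signs turned; without the outer arrays 8 of the 34 signs turned, with F3 at -0.11. The cause was not tested. In PC9, where 0 were called, the count was 1 (F3) with the line alone, 1 (F3) without the outer A549 arrays, and 0 to 1 with each array left out (F3 without either A549 NC array). PC9 changes near 0 turned sign: with the mean of probe sets AMOTL2 -0.010, TEAD1 0.012 and YAP1 0.013; with an array left out CCN1 ran from -0.0090 to 0.20, LATS2 from -0.078 to 0.15 (-0.036 in another), YAP1 from -0.023 to 0.0022 and FOXF2 from -0.0043 to 0.13. For the difference between lines, where 1 was called, the count was 0 with the 18S covariate (CCN1 -0.056 and LATS2 -0.052 turned), 0 without the outer arrays, 0 with treat, and 0 to 4 with each array left out. Apart from the replicate block, given below, the other alternatives left each count within 1.5 times. The line alone cannot give the difference.

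Pairing by replicate number was not established: deviations of same-numbered arrays correlated at 0.349 in A549 and 0.0656 in PC9. With the replicate block 12 members were called in A549 (10 higher, 2 lower; 1393 of all genes), 1 in PC9 (CCN2) and 8 in the difference (7 higher, 1 lower). CCN1, CCN2 and LATS2 were among the 12 (limma adjusted p = 0.0114, 0.0054 and 0.00173). In A549 replicate 2 had the higher 18S signal in both groups (12.12 against 11.66 with EN2, 12.74 against 12.44 in NC cells). The block thus takes up 18S spread within the groups and leaves the 18S difference between them in the change. With the 18S covariate the changes of CCN1, CCN2 and LATS2 were 0.0077, -0.44 and -0.038.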
